A study of Bos taurus with 16 samples.

Results

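The cytosolic ribosome of the liver was followed here through the transcripts of its proteins. Members were the transcript clusters whose gene symbol starts with RPL or RPS and a digit, or is *RPLP0*, *RPLP1*, *RPLP2* or *RPSA*, after 10 symbols of the RPS6K kinases had been dropped. A transcript cluster is the group of array probes that stands for 1 gene. Where a symbol had more than 1 cluster, the one with the highest mean signal was kept. This gave 82 genes, 50 of the large and 32 of the small subunit, among 20421 clusters with 20011 symbols. Of the 82, 73 are standard ribosomal proteins. The remaining 9 are paralogs or look-alikes, among them *RPS19BP1*, which encodes a protein that binds a ribosomal protein and is not itself part of the ribosome. None of the members carried the symbols *RPS6*, *RPS25*, *RPL17* or *RPL41*, and *FAU* does not fall under the rule. Clusters described as S6, S25 or L17 under LOC symbols are counted further below.

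Liver biopsies of 16 female, multiparous Holstein cows at week 1 postpartum were compared, 8 cows of the *FGF21* high group and 8 cows of the *FGF21* low group. *FGF21* encodes a hormone that the liver releases under metabolic stress. The study formed the groups by taking the cows with the highest and the lowest hepatic *FGF21* expression at this time from those of a herd that had needed no medical treatment, so the groups differ by selection and not by a treatment. All cows were fed the same total mixed ration. Each cow had 1 array, and the values are normalized log2 signals, on which a difference of 1 is a doubling. Signals of different probe sets cannot be set against each other as levels of the genes, so comparisons are made between cows.

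A ribosome consists of a small subunit, which reads the mRNA, and a large subunit, which joins the amino acids. Each ribosomal protein is normally present once per ribosome, the stalk proteins P1 and P2 being the exception, and the genes are therefore usually expressed in step. Their mRNAs start with a run of pyrimidines, through which mTOR and the RNA-binding protein LARP1 control whether they are translated. Much of the regulation of ribosome production is thus known to act on translation and not on the amount of these mRNAs. In the liver, ribosomes serve the synthesis of plasma proteins, and early lactation is a time of high demand on the organ.

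The *FGF21* high and the *FGF21* low livers had closely similar signals for the ribosomal protein genes. None of the 82 members passed limma's test after adjustment over all clusters, against 0.0294% of all clusters. At a p under 0.05 without adjustment, 3 members were higher and 0 were lower in the *FGF21* high group, which is 3.66% of the members. Among all clusters, 7.42% had such a p, 2.89% with the higher and 4.52% with the lower signal in the *FGF21* high group. The members' share was thus slightly above the background for higher signals, below it for lower signals and below it for both together. None of the members also met the study's second criterion, a fold change above 1.2, against 2.84% of all clusters that met both. Without regard to p, 1 member (*RPS23*) differed by more than 1.2-fold, against 4.09% of all clusters.

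The differences were small and lay on both sides of 0. The log2 fold change was positive for 42 members and negative for 40, whereas 43.4% of all clusters had a positive one. The median log2 fold change was 0.0024 over the members and -0.017 over all clusters. The single values ran between -0.23 (*RPS14*) and 0.38 (*RPS23*). For 58 of the 82 members, the whole 95% confidence interval of the fold change lay within 1.2-fold in either direction, against 48.2% of all clusters. For those members, a difference in array signal of more than 1.2-fold lies outside the interval, while for the other 24 it does not. The intervals bound the array signal and not the amount of mRNA. For *FGF21* itself, the study reported a smaller fold difference by array than by qPCR. No member had groups without overlap, against 0.0539% of all clusters.

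**Figure D1:**
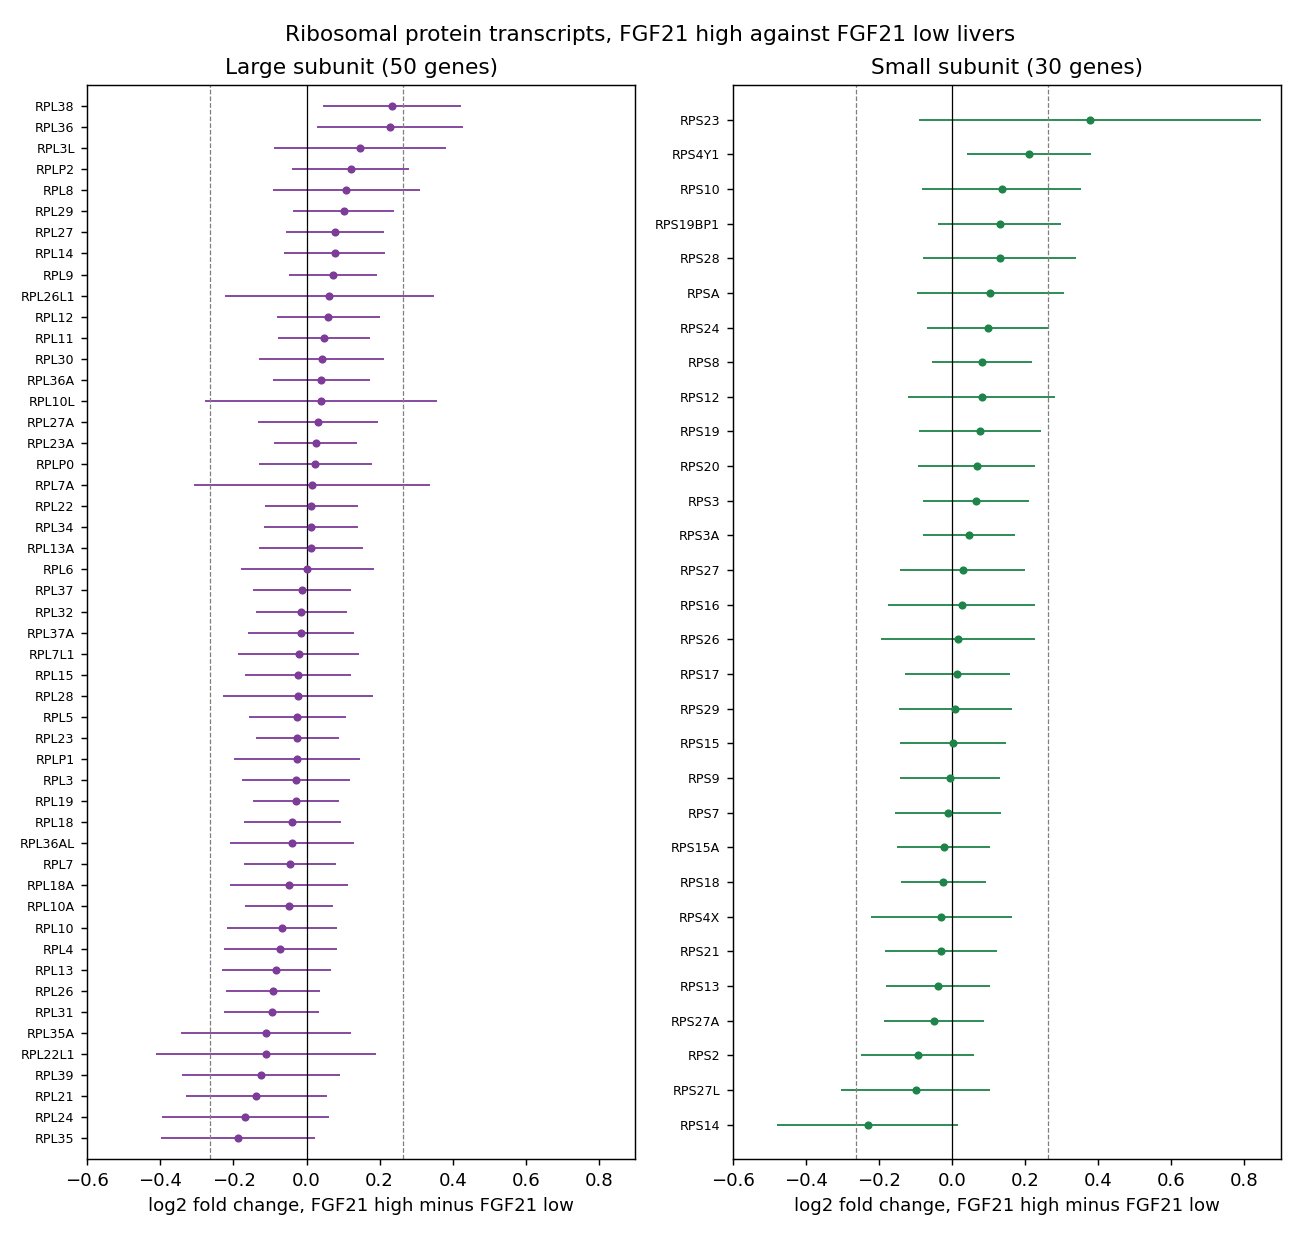
Log2 fold change (*FGF21* high minus *FGF21* low, x axis) of 80 of the 82 ribosomal protein genes with 95% confidence intervals, large subunit on the left and small subunit on the right. Dashed lines mark 1.2-fold in either direction, and the points gather around 0, with *RPS23* at 0.38 as the highest value and the widest interval.

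The large and the small subunit had medians on either side of 0. In the large subunit 2 of 50 genes (4.0%) and in the small subunit 1 of 32 genes (3.1%) had a p under 0.05 without adjustment. Among all clusters this share was 7.42%. All of these members had the higher signal in the *FGF21* high group, against 2.89% of all clusters that were higher at such a p. The median log2 fold change was -0.015 for the large and 0.017 for the small subunit, a gap of -0.032. Of the large subunit genes 23 were positive and 27 negative, and of the small subunit genes 19 were positive and 13 negative. Within single cows, the mean of the large subunit minus that of the small subunit, each gene taken against its own mean over all cows, was between -0.063 and 0.035 (median -0.015) in the *FGF21* high group. In the *FGF21* low group it was between -0.020 and 0.077 (median 0.0023). The means were -0.017 ± 0.032 in the *FGF21* high and 0.017 ± 0.037 in the *FGF21* low group (SD, n = 8 each), a gap of -0.033 that is about the size of the SD, and the 2 groups overlapped.

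By role, the large subunit begins with the stalk, which recruits the elongation factors. *RPLP2*, one of the acidic stalk proteins, had signals between 9.70 and 10.13 (median 9.84) in the *FGF21* high group and between 9.51 and 9.94 (median 9.75) in the *FGF21* low group. Its log2 fold change was 0.12 ± 0.08 (SE), with p = 0.130 before and 0.770 after adjustment in limma and an exact permutation p of 0.110. The partner *RPLP1* (-0.03 ± 0.08) and the anchor *RPLP0* (0.02 ± 0.07) were closer to 0. *RPL12* lies at the base of the stalk and served the study as a reference gene in qPCR. Its signal was between 11.10 and 11.59 (median 11.31) in the *FGF21* high group and between 11.11 and 11.35 (median 11.28) in the *FGF21* low group. The groups overlapped almost fully for *RPL12*, with a log2 fold change of 0.06 ± 0.07 (SE) and a 95% interval of -0.08 to 0.20. Its exact permutation p over all assignments of the cows was 0.326 (two-sided, n = 8 each).

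*RPL5* and *RPL11* form, with the 5S rRNA, the particle that also binds the p53 regulator MDM2 when ribosome assembly is disturbed. Their log2 fold changes were -0.02 ± 0.06 and 0.05 ± 0.06 (SE). Around the peptidyl transferase centre, where the peptide bond is made, *RPL3* had -0.03 ± 0.07, *RPL8* 0.11 ± 0.10 and *RPL10* -0.07 ± 0.07. These 5 genes therefore stood on both sides of 0, each within 2 SE of it. The proteins that line the exit tunnel or surround its opening were negative in 6 of 8 cases and positive in 2, where 43.4% of all clusters were positive. Their median was -0.08, but none of the 8 had a p under 0.05, against 7.42% of all clusters. The lowest value among them was that of *RPL35*, which sits at the tunnel opening. *RPL35* had signals between 6.47 and 7.11 (median 6.87) in the *FGF21* high group and between 6.77 and 7.27 (median 6.95) in the *FGF21* low group. The groups overlapped, and the difference of -0.19 ± 0.10 had p = 0.0776 before and 0.715 after adjustment in limma and an exact permutation p of 0.0971.

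*RPL26*, also at the tunnel opening, differed in another way. Its signals were between 10.29 and 10.53 (median 10.46) in the *FGF21* high group and between 10.38 and 10.72 (median 10.52) in the *FGF21* low group. All 8 *FGF21* high cows lay below the *FGF21* low mean, yet the difference was only -0.09 ± 0.06 (SE) and the exact permutation p was 0.0601 (two-sided, n = 8 each). The lower bound of its interval, 0.859-fold, lay inside 1.2-fold.

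In the small subunit, the proteins at the mRNA entry, *RPS2*, *RPS3* and *RPS9*, had log2 fold changes of -0.09 ± 0.07, 0.07 ± 0.07 and -0.0042 ± 0.07 (SE). At the decoding site, where codon and anticodon meet, *RPS15* had 0.0035 ± 0.07 and *RPS27A*, which is made as a fusion with ubiquitin, had -0.05 ± 0.07. The third gene of the decoding site is *RPS23*, which had the largest difference of all members. *RPS23* had signals between 4.42 and 5.30 (median 5.12) in the *FGF21* high group and between 3.48 and 5.33 (median 4.94) in the *FGF21* low group. Cows 3 and 7 of the *FGF21* low group were low, at 3.72 and 3.48, while the other 6 cows of that group, at 4.75 to 5.33, overlapped with the *FGF21* high group. The fold change was 1.30 with a 95% interval of 0.940 to 1.80, and the exact permutation p was 0.197 (two-sided, n = 8 each). Without cow 7 of the *FGF21* low group the log2 fold change of *RPS23* was 0.21 instead of 0.38, and without cow 3 of that group it was 0.24, with exact permutation p-values of 0.394 and 0.387. Without cow 5 of the *FGF21* low group it was 0.47, and p was then 0.0464 without and 0.600 with adjustment in limma, with an exact permutation p of 0.0960.

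At the mRNA exit and the platform stand *RPSA*, the protein also known as laminin receptor, and *RPS14*, *RPS26* and *RPS28*. *RPSA* had a log2 fold change of 0.11 ± 0.10 (SE). *RPS14* had the lowest value of all members. Its signals were between 4.80 and 5.68 (median 5.11) in the *FGF21* high group and between 5.18 and 5.73 (median 5.40) in the *FGF21* low group. In the *FGF21* high group 6 of 8 cows lay below the *FGF21* low mean, while cows 3 and 7, at 5.59 and 5.68, lay above it. The difference was -0.23 ± 0.12 (SE), with p = 0.0677 before and 0.702 after adjustment in limma and an exact permutation p of 0.0974. Its p without adjustment was under 0.05 when 1 cow was left out in 3 cases, namely 0.0193 without cow 3 and 0.0109 without cow 7 of the *FGF21* high group, and 0.0487 without cow 5 of the *FGF21* low group.

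*RPS3*, *RPS10* and *RPS20* are among the proteins that receive ubiquitin when ribosomes collide on an mRNA, and the set is not complete. Their log2 fold changes were 0.07 ± 0.07, 0.14 ± 0.10 and 0.07 ± 0.08 (SE), all positive and none with a p under 0.05. Among all clusters, 43.4% were positive and 7.42% had such a p. Among 9 genes mutated in human Diamond-Blackfan anemia, a failure of red cell production, 6 were positive and 3 negative, with a median of 0.018. *RPS19*, the gene first tied to that disease, had 0.08 ± 0.08.

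The 3 members with a p under 0.05 without adjustment were *RPS4Y1*, *RPL38* and *RPL36*. *RPS4Y1* is named after the Y-linked copy of *RPS4X* in human, but the array places its cluster on chromosome 23 and all cows were female. Its signals were between 6.64 and 6.99 (median 6.73) in the *FGF21* high group and between 6.27 and 6.76 (median 6.57) in the *FGF21* low group. All 8 *FGF21* high cows lay above the *FGF21* low mean, while the 2 groups still overlapped. The fold change was 1.16 (95% interval 1.03 to 1.30), with p = 0.0167 before and 0.580 after adjustment in limma and an exact permutation p of 0.0157 (two-sided, n = 8 each). The X-linked *RPS4X* had a log2 fold change of -0.03 ± 0.09 (SE).

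*RPL38* is a small protein of the large subunit, known from mouse embryos for its part in the translation of Hox mRNAs. Its signals were between 6.50 and 6.94 (median 6.68) in the *FGF21* high group and between 6.004 and 6.66 (median 6.50) in the *FGF21* low group. The lowest of the *FGF21* low cows, cow 7 at 6.004, stood apart from the others of its group at 6.41 to 6.66. The fold change was 1.18 (95% interval 1.03 to 1.34), with p = 0.0183 before and 0.580 after adjustment in limma and an exact permutation p of 0.0141 (two-sided, n = 8 each). Without cow 7 of the *FGF21* low group the log2 fold change was 0.17 instead of 0.23, with p = 0.0419 before and 0.766 after adjustment in limma and an exact permutation p of 0.0305.

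*RPL36*, a large subunit protein found in eukaryotes, had signals between 6.33 and 7.03 (median 6.81) in the *FGF21* high group and between 6.29 and 6.67 (median 6.57) in the *FGF21* low group. Cow 1 of the *FGF21* high group, at 6.33, was near the bottom of the *FGF21* low range, and the other 7 lay above the *FGF21* low mean. The fold change was 1.17 (95% interval 1.02 to 1.34), with p = 0.0277 before and 0.630 after adjustment in limma and an exact permutation p of 0.0387 (two-sided, n = 8 each). This p did not stay under 0.05 when cow 2 (0.0622), cow 4 (0.0634) or cow 7 (0.0513) of the *FGF21* high group, or cow 7 (0.0528) or cow 8 (0.0607) of the *FGF21* low group was left out. With the running number that the sample descriptions carry as a covariate, none of the 3 genes kept a p under 0.05, the values being 0.0602 for *RPS4Y1*, 0.0847 for *RPL38* and 0.05003 for *RPL36*. That number runs over 1 to 26 in the *FGF21* high and 7 to 31 in the *FGF21* low group, and the labels do not say what it stands for.

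**Figure D2:**
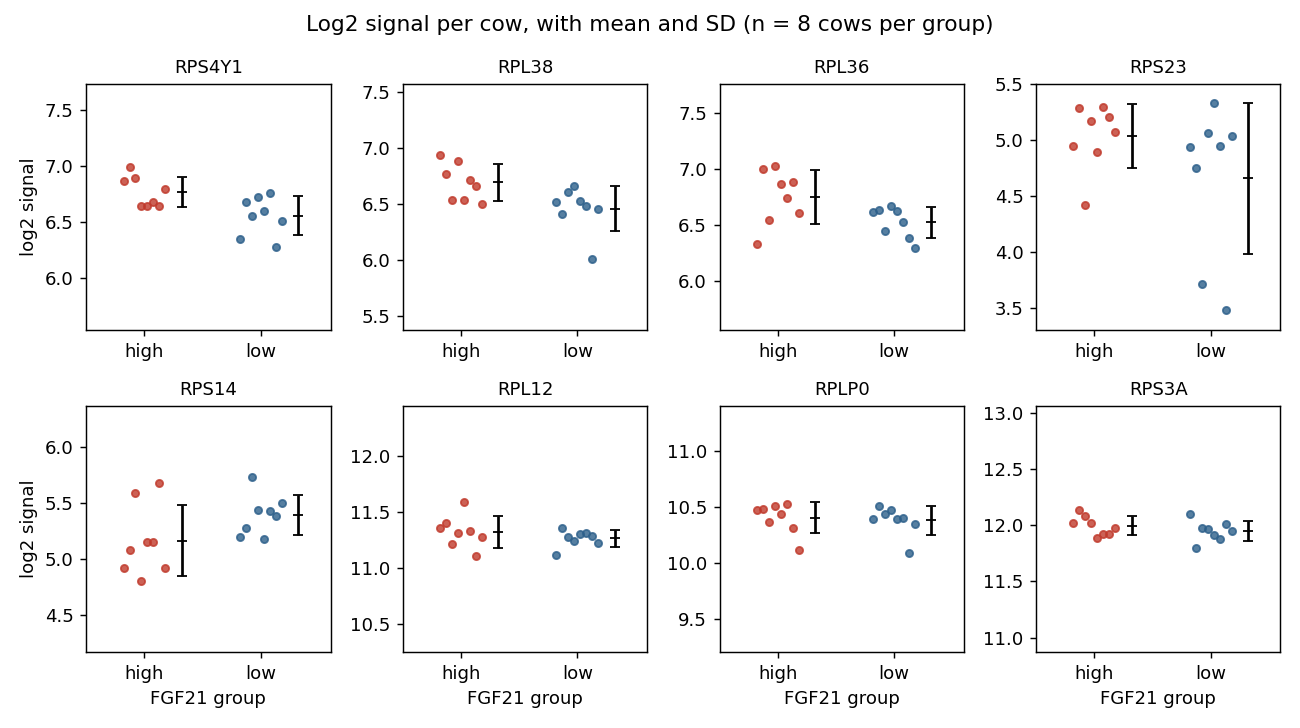
Log2 signal (y axis, the same span of 2.2 in each panel) of 8 ribosomal protein genes in each cow of the *FGF21* high and the *FGF21* low group, with the mean and SD beside the points (n = 8 each). The groups overlap in every panel, including *RPS4Y1*, *RPL38* and *RPL36*, and the *FGF21* low cows of *RPS23* include values of 3.72 and 3.48.

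The members differed in their number of probes and in their signal. The clusters of the members hold between 8 and 29 probes (median 15.5), and 73 of the 82 had a mean signal above 6.28, the median of all clusters. All 3 members with a p under 0.05, and *RPS23* and *RPS14* too, were among the 17 members with a mean signal under 7. They were 17.6% of that band, against 6.78% of all clusters in it. In this band the SD within groups had a median of 0.23 for the members and 0.19 for all clusters, and 2 of the 17 members had an interval inside 1.2-fold, against 43.3% of all clusters. Of the 29 members between 7 and 10, none had a p under 0.05, against 8.04% of all clusters. Of the 36 members at 10 or more, none had one either, against 14.9% of all clusters. At 10 or more, 33 of the 36 members had an interval inside 1.2-fold, against 53.5% of all clusters, and the median SD was 0.12 for the members and 0.16 for all clusters. Between 7 and 10 it was 23 of the 29 members, against 58.3% of all clusters.

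Among strongly measured members the cows lay close together. *RPS3A*, which binds near the mRNA exit, had signals between 11.89 and 12.14 (median 12.00) in the *FGF21* high group and between 11.80 and 12.10 (median 11.96) in the *FGF21* low group. *RPL23*, with the smallest spread, had between 11.56 and 11.78 (median 11.72) in the *FGF21* high group and between 11.67 and 11.80 (median 11.72) in the *FGF21* low group. At the other end, *RPL7A* had signals between 5.93 and 7.46 (median 6.72) in the *FGF21* high group and between 6.38 and 7.12 (median 6.71) in the *FGF21* low group. Its log2 fold change was 0.014 ± 0.15 (SE), so that a difference of 1.2-fold in either direction lies within its interval of 0.807 to 1.26.

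**Figure D3:**
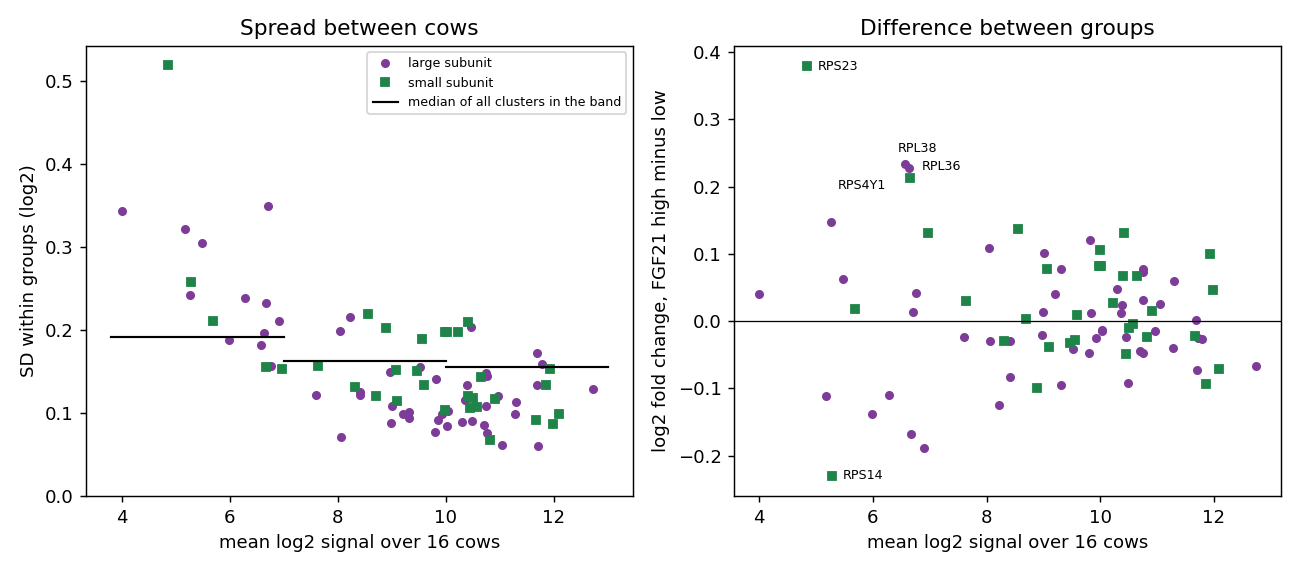
SD within groups (left) and log2 fold change, *FGF21* high minus *FGF21* low (right), of each member against its mean log2 signal over 16 cows, with black lines for the median SD of all clusters in each of the 3 signal bands. The members under a signal of 7 spread most, and *RPS4Y1*, *RPL38*, *RPL36*, *RPS23* and *RPS14* are all among them.

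The paralogs and look-alikes were less tightly measured than the standard members, but their signals were also weaker. *RPL3L* is known as the muscle form of *RPL3* and *RPL10L* as the testis form of *RPL10*. *RPL3L* had signals between 5.10 and 5.81 (median 5.34) in the *FGF21* high group and between 4.77 and 5.54 (median 5.27) in the *FGF21* low group, with a log2 fold change of 0.15 ± 0.11 (SE). *RPL10L* had 0.04 ± 0.15, *RPL22L1* -0.11 ± 0.14, *RPL26L1* 0.06 ± 0.14 and *RPS27L*, a p53 target in human, -0.10 ± 0.10. *RPL7L1* and *RPL36AL* had -0.02 ± 0.08 and -0.04 ± 0.08, close to *RPL7* (-0.04 ± 0.06) and *RPL36A* (0.04 ± 0.06). Only 2 of the 9 paralogs and look-alikes had an interval inside 1.2-fold, against 56 of the 73 standard members and 48.2% of all clusters. The median signal of the 9 was 6.66, against 9.99 for the standard members. Among all members with a mean signal under 7, 2 of 17 had such an interval. The part of signal strength in this difference was not tested. Without the 9, 2 of 73 genes (2.74%) had a p under 0.05, against 7.42% of all clusters, and the median was 0.0014.

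Ribosomal protein genes have many processed copies in the genome, whose sequences differ little from the parent gene, and probes can bind RNA of both. Of the 4 symbols with a second cluster, *RPL23A* had log2 fold changes of 0.025 and 0.0011 for the kept and the other cluster, *RPL36AL* -0.04 and 0.03, *RPS28* 0.13 and 0.07, and *RPS4X* -0.03 and 0.011. None of these 8 clusters had a p under 0.05. A further 113 clusters are described as ribosomal proteins under LOC symbols, 92 of them as pseudogenes, and the others, such as a cluster for S25, need not be copies. Of the 113, 5 were higher and 5 lower at a p under 0.05 without adjustment, 8.85% against the 7.42% of all clusters, and the median was -0.026. Some clusters described as L39 had identical signals in all cows, so the 113 are not all separate measurements. The median is the value of these L39 clusters. The smallest p was that of an L13 pseudogene, LOC783144, with signals between 5.64 and 6.19 (median 5.98) in the *FGF21* high group and between 6.05 and 6.58 (median 6.27) in the *FGF21* low group. Its difference was -0.35 ± 0.09 (SE), with p = 0.00119 before and 0.346 after adjustment in limma and an exact permutation p of 0.00218, whereas *RPL13* itself had -0.08 ± 0.07. How much of any signal came from a copy cannot be told from the deposited values.

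Cows differed from each other more than the groups did. For each cow, the deviation of every member from its mean over all cows was averaged. In the *FGF21* high group, this mean deviation was 0.057, 0.11, -0.040, 0.0095, 0.0012, 0.047, -0.042 and -0.096 for cows 1 to 8. In the *FGF21* low group, it was -0.035, 0.058, -0.014, 0.016, 0.051, 0.018, -0.14 and 0.0046 for cows 1 to 8. The means were 0.0053 ± 0.064 in the *FGF21* high and -0.0053 ± 0.062 in the *FGF21* low group (SD, n = 8 each), so the gap between the groups was far below the spread within them. Cow 2 of the *FGF21* high group had 70 of 82 members above their own median over all cows, and cow 8 of the same group had 14. In the *FGF21* low group, the count reached 62 in cow 5 and was lowest in cow 7, with 18. The study reported some degradation of the RNA in its samples, and the part of RNA quality in these differences between cows was not tested.

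**Figure D4:**
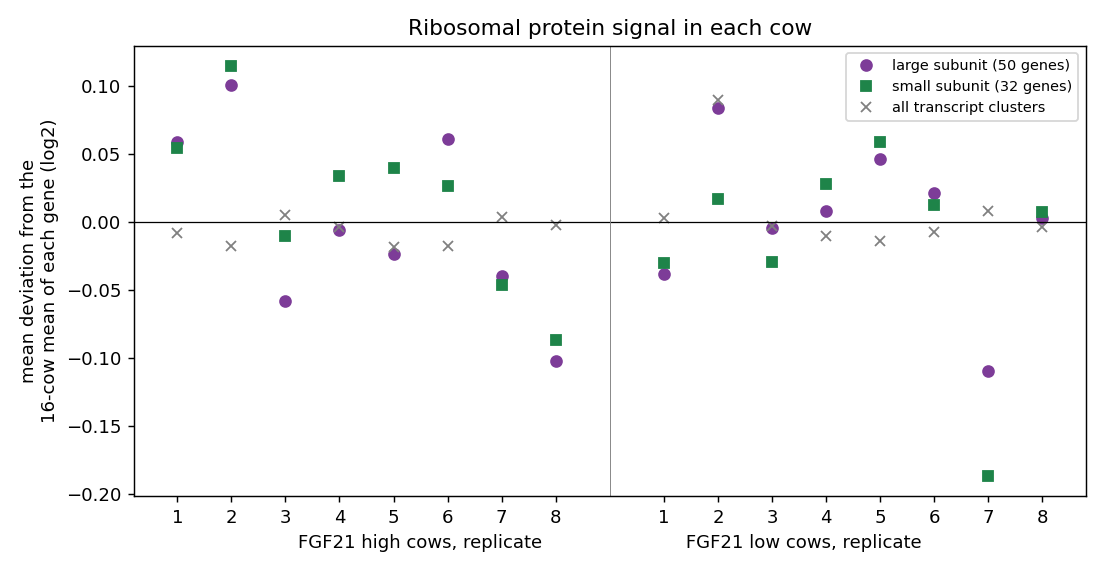
Mean deviation of the large subunit genes (circles), the small subunit genes (squares) and all transcript clusters (crosses) from the 16-cow mean of each gene, in log2 units, for the 8 *FGF21* high and the 8 *FGF21* low cows. The subunits move together from cow to cow, and cow 7 of the *FGF21* low group is lowest, with -0.19 for the small subunit.

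Cow 7 of the *FGF21* low group had the lowest signal of all 16 cows for 21 members, with a mean deviation of -0.11 for the large and -0.19 for the small subunit. Cow 2 of the *FGF21* low group was the highest cow for 17 members and the lowest for 8. In this cow 64.4% of all clusters were above their own median over the cows and the mean deviation of all clusters was 0.089, while that mean was between -0.019 and 0.0081 in the remaining 15 cows. The part of this cow in the results of single members was not tested beyond leaving it out. When cows 2 and 7 of the *FGF21* low group were both left out, a choice made after the values had been seen, *RPS4Y1* was the 1 member with a p under 0.05 (0.0374 before adjustment in limma and 0.0330 in the exact permutation test). The exact permutation p was then 0.0629 for *RPL38* and 0.0716 for *RPL36*, and the median of the members was -0.0029.

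Other genes of the translation apparatus and of ribosome production were read from the same fit. The translation factors and partners, most of whose mRNAs carry the same pyrimidine start, had 0 higher and 1 lower of 20 at a p under 0.05 without adjustment, against 2.89% higher and 4.52% lower among all clusters, with a median of -0.038. The lower one was *EEF1A1*, which brings aminoacyl-tRNA to the ribosome. Its signals were between 10.43 and 10.78 (median 10.70) in the *FGF21* high group and between 10.62 and 11.44 (median 10.86) in the *FGF21* low group. All 8 *FGF21* high cows lay below the *FGF21* low mean, with a difference of -0.25 ± 0.10 (SE), p = 0.0222 before and 0.610 after adjustment in limma and an exact permutation p of 0.0211. The highest *FGF21* low value, 11.44, was that of cow 2, which was also high over all clusters, and the next highest was 11.08. The difference of *EEF1A1* without this cow is not given here. *EEF2*, which moves the ribosome along the mRNA, had -0.02 ± 0.07, and *RACK1*, a scaffold on the small subunit, had 0.0029 ± 0.07.

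Of 39 genes of ribosome assembly and rRNA synthesis, 2 were higher and 0 lower at a p under 0.05 without adjustment, against the same 2.89% and 4.52%. There were 28 positive and 11 negative values, against 43.4% positive among all clusters, with a median of 0.019. *RIOK1*, a kinase that acts in the last steps of small subunit maturation, had the smaller p. Its signals were between 6.62 and 7.28 (median 7.11) in the *FGF21* high group and between 6.43 and 6.95 (median 6.74) in the *FGF21* low group. The difference was 0.33 ± 0.09 (SE), with p = 0.00183 before and 0.382 after adjustment in limma and an exact permutation p of 0.00451. *GAR1*, a protein of the particles that modify uridines in rRNA, had 0.22 ± 0.10, with p = 0.0465 before and 0.667 after adjustment in limma and an exact permutation p of 0.0637.

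Among 19 genes of the growth and stress control of ribosome production, 1 was higher and 1 lower at a p under 0.05 without adjustment, against the same shares. *MYC*, which drives the transcription of ribosomal genes, had signals between 5.69 and 6.54 (median 6.09) in the *FGF21* high group and between 5.87 and 6.92 (median 6.48) in the *FGF21* low group, a difference of -0.34 ± 0.14 (SE; p = 0.0247 before and 0.627 after adjustment in limma, exact permutation p 0.0486). Its partner *MAX* had signals between 8.56 and 8.87 (median 8.79) in the *FGF21* high group and between 8.40 and 8.77 (median 8.58) in the *FGF21* low group, a difference of 0.19 ± 0.07 (SE; p = 0.0138 before and 0.565 after adjustment in limma, exact permutation p 0.0101). The 2 partners thus had opposite signs, and neither passed the adjusted test. *MTOR* and *LARP1* had 0.06 ± 0.06 and -0.02 ± 0.08. Of the 76 mitochondrial ribosomal proteins, which build a separate ribosome inside mitochondria, 0 had a p under 0.05 without adjustment in limma, against 7.42% of all clusters. Their median was -0.026, and 54 of the 76 had an interval inside 1.2-fold, against 48.2% of all clusters.

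**Figure D5:**
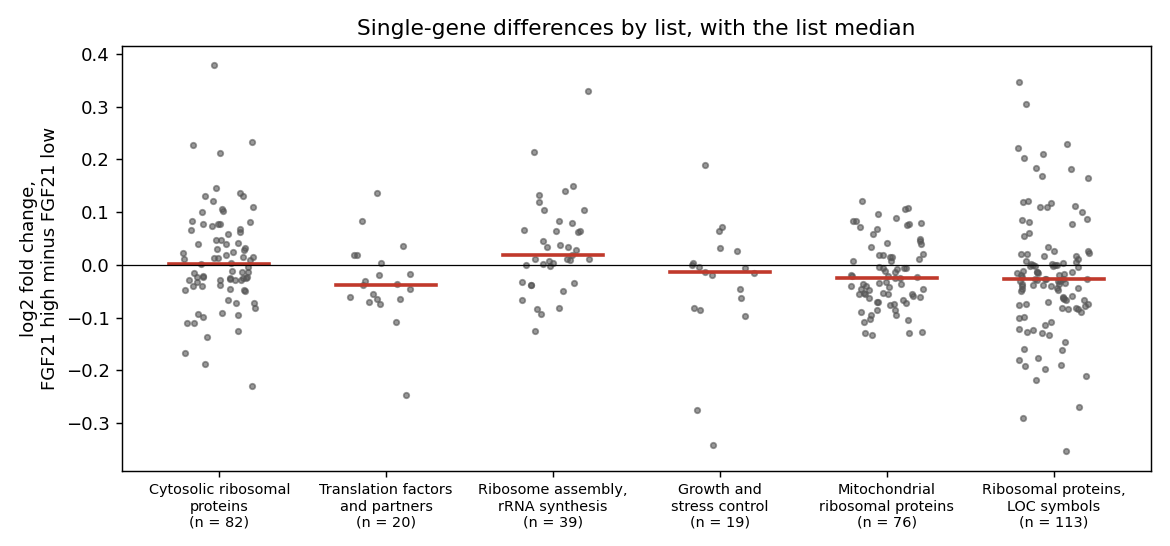
Log2 fold change (*FGF21* high minus *FGF21* low, y axis) of each gene in 6 lists, with the list median as a red bar. The medians lie between -0.038 for the translation factors and partners and 0.019 for ribosome assembly and rRNA synthesis.

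Markers of the cell types of the liver were checked beside these values. The mean signal of 7 hepatocyte markers, albumin among them, was between 12.24 and 12.46 in the *FGF21* high and between 12.36 and 12.49 in the *FGF21* low group, with 6 of 7 negative, a median of -0.08 and 1 (*APOA1*) lower at a p under 0.05. All 9 Kupffer cell and macrophage markers were positive (median 0.14, 1 with a p under 0.05), with a mean signal between 8.79 and 9.39 in the *FGF21* high and between 8.66 and 9.21 in the *FGF21* low group. All 8 endothelial markers were positive as well (median 0.13, 2 with a p under 0.05), with a mean signal between 8.04 and 8.43 in the *FGF21* high and between 7.92 and 8.30 in the *FGF21* low group. All 8 stellate cell and fibroblast markers were negative (median -0.17, 1 with a p under 0.05), with a mean signal between 7.00 and 7.64 in the *FGF21* high and between 7.02 and 7.73 in the *FGF21* low group. Of the lymphocyte markers 8 of 11 and of the neutrophil markers 5 of 6 were positive, with medians of 0.07 and 0.10. In each of these 2 lists, 1 marker was higher at a p under 0.05. Bile duct markers were positive in 3 of 5 cases, red cell precursor markers in 1 of 5 and cell cycle genes in 4 of 5. None of these had a p under 0.05. Among all clusters, 43.4% were positive, and 2.89% were higher and 4.52% lower at a p under 0.05 without adjustment. In such biopsies, fewer cells of a type and less RNA per cell cannot be told apart, and the part of these markers in the values of the ribosomal protein genes was not tested.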

How the data were processed

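The authors' service provider processed the arrays with Affymetrix Expression Console 1.4 and RMA, and the signals used here carry the label SST-RMA. The deposited values are log2 signals, 1 per transcript cluster and cow, background-corrected and quantile-normalized between arrays. The genome build was not given in the sources used here. Deposited numbers of probes per cluster (another kind of value) were taken as given, and the authors' means, fold changes and p-values were not used. The same signals, deposited rounded to 2 decimals, differed by at most 0.005. The number of arrays sets the precision. No cluster was filtered out.

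All 20421 clusters were fitted with R 4.3.3 and limma 3.58.1 (group as the only term in lmFit, then eBayes), with p-values adjusted by Benjamini-Hochberg over all of them at a threshold of 0.05. Single values also had a two-sided exact permutation test, with 12870 ways to assign the cows (smallest possible p 0.000155). The rest was done in Python 3.11.15 (scipy 1.17.1, pandas 2.3.3, numpy 2.4.6, matplotlib 3.10.9). The fit was checked on simulated data.

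The members, the gene lists and the rule for named genes were chosen with earlier results of these data known, and the list of clusters under LOC symbols after their values were seen. Named are *RPL12*, the stalk genes, *RPSA*, members with p under 0.05, the 5 highest and 5 lowest signals, the 5 largest SDs, paralog pairs and members with a cow far from its group. Other members described by role were named after their values were seen. Of the listed genes, 5 were not matched. Of the members, 2 are counted but not reported by name here. Of 62 members whose accession is in the RefSeq table for ARS-UCD2.0, all 62 had the same symbol there. Groups and cow numbers come from the labels, and the numbers do not pair the cows. Alternatives were other limma settings, the methods' t-test, Welch's test, other normalizations, the rounded table, a signal filter, a block for the replicate number, a covariate for the running number, averaged clusters, standard members only, and each cow left out.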

Additional observations from a re-analysis of the deposited data

Results flagged for a closer look

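In 11 of the 164 groups of 8 values formed by the 82 members, 1 cow lay far from the other 7 of its group by Dixon's ratio, where chance alone marks about 1 group in 20. Of these, 10 are given here. Cow 6 of the *FGF21* high group was high for *RPL10A* (9.998, others 9.65 to 9.80), *RPL18* (11.50, others 11.15 to 11.31) and *RPL28* (10.91, others 10.27 to 10.57). In the same group, cow 7 was high for *RPL3L* (5.81, others 5.10 to 5.43) and cow 3 low for *RPS23* (4.42, others 4.89 to 5.30).

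Cow 2 of the *FGF21* low group was high for *RPL36A* (9.40, others 9.07 to 9.22), *RPL36AL* (9.95, others 9.40 to 9.58) and *RPL7L1* (9.29, others 8.84 to 9.04). It was also high for the translation partner *BTF3* (10.67, others 10.16 to 10.37) and for the mitochondrial ribosomal proteins *MRPL34* (8.07, others 7.65 to 7.82) and *MRPL10* (7.62, others 7.13 to 7.32). This is the cow whose signals were above the mean over all clusters.

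Cow 7 of the *FGF21* low group was low for *RPL38* (6.004, others 6.41 to 6.66) and *RPLP0* (10.08, others 10.35 to 10.51). Its mean deviation over all members was -0.14 (others -0.035 to 0.058), and that over the small subunit was -0.19 (others -0.031 to 0.058). Cow 5 of the *FGF21* high group was low for *MRPL41* (7.70, others 7.96 to 8.14).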

How the results depend on the processing

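No member passed the adjusted test under any alternative, and none did in the fits that left out 1 cow. The number of members with a p under 0.05 without adjustment was 3 higher and 0 lower, and fits without 1 cow gave 2 to 4 higher and 0 to 2 lower. Array weights gave 2 lower members (*RPL35* and *RPS14*), a second quantile normalization 1 (*RPL35*), and the running number as a covariate 1 lower (*RPL24*) and 1 higher (*RPL3L*). Without cows 2 and 7 of the *FGF21* low group there was 1 higher member. The replicate number as a block gave 1 lower member (*RPS14*), but deviations of cows with the same number correlated between -0.21 and 0.13 and 0 of 8 cows correlated best with their own number, so this fit pairs cows that share only a number. The median of the members stayed between -0.024 and 0.016, and between -0.018 and 0.017 without 1 cow.

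Among the named members, signs turned for those near 0. With array weights, *RPL36AL* had 0.00061, *RPS15A* 0.0045 and *RPS15* -0.0043. With a second quantile normalization, *RPLP1* had 0.016, *RPS15A* 0.013 and *RPL28* 0.0075. With the running number, *RPLP0* had -0.039, *RPL26L1* -0.030, *RPL36A* -0.023, *RPS15* -0.019, *RPS27* -0.016 and *RPL22* -0.014. Without cows 2 and 7 of the *FGF21* low group, *RPL28* had 0.023, *RPL36AL* 0.021, *RPL7L1* 0.014, *RPS15A* 0.0096, *RPLP0* -0.0043, *RPL22* -0.0089 and *RPS15* -0.012. Without 1 cow, the log2 fold change ran from -0.034 to 0.16 for *RPL10L*, from -0.011 to 0.032 for *RPL22*, from -0.035 to 0.13 for *RPL26L1*, from -0.090 to 0.034 for *RPL28*, from -0.068 to 0.017 for *RPL36AL* and from -0.093 to 0.13 for *RPL7A*. It ran from -0.064 to 0.023 for *RPL7L1*, from -0.019 to 0.065 for *RPLP0*, from -0.076 to 0.016 for *RPLP1*, from -0.016 to 0.041 for *RPS15*, from -0.045 to 0.00049 for *RPS15A*, from -0.0055 to 0.083 for *RPS27* and from -0.083 to 0.015 for *RPS4X*. The causes were not tested.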

Other observations

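*RPL12* and *EEF1A1* were reference genes of the study in qPCR, where they were combined with a histone gene into a joint normalization factor. On the arrays, these 2 genes had group differences of opposite sign. The study did not use the difference between them as a reference, and the joint factor was not examined here. Within each cow, the log2 signal of *RPL12* minus that of *EEF1A1* was 0.66 ± 0.17 in *FGF21* high and 0.35 ± 0.24 in *FGF21* low cows (SD, n = 8 each). It was between 0.44 and 0.92 in *FGF21* high and between -0.084 and 0.60 in *FGF21* low cows, with 8 of 8 *FGF21* high cows above the *FGF21* low mean. The value of -0.084 was that of cow 2 of the *FGF21* low group, and the gap without this cow was not examined. The gap between the groups of 0.31, in which a fixed offset between the 2 probe sets cancels, had an exact permutation p of 0.00995 (two-sided), for a pair that was chosen after the values had been seen. *H3F3A*, the histone gene that completes the set, had a log2 fold change of 0.14 ± 0.09 (SE; p = 0.135 before and 0.773 after adjustment in limma, exact permutation p 0.138).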
